A study of Mus musculus with 4 samples.

Results

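Cyclins, cyclin-dependent kinases (CDKs), their inhibitors and the E2F transcription factors form the core circuit of cell division, and 52 genes of this circuit are described here out of the 50600 genes counted. They were chosen by name and function, though with earlier results of these data known. They comprise 19 cyclins, 10 CDKs, 7 CDK inhibitors, 5 genes that set CDK phosphorylation, 3 pocket proteins and 8 E2F factors. All 52 were found in the count tables, and all are annotated as protein coding. Regulatory T cells are a class of CD4+ lymphocyte defined by the factor Foxp3 that keeps immune responses in check, and their RNA was sequenced as 4 mouse libraries. All 4 are primary cells of the C57BL/6NJ strain and make up 1 group. No treatment, genotype or other cell type is set against them, so levels and their spread were described and no condition was compared.

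Each library has its own biosample, and the labels give all 4 the same donor record while leaving sex and age unrecorded. They do not say whether the biosamples were separate animals or cultures, so the spread and the p-values below measure only the differences between these biosamples and may be partly technical. The assay is labelled as total RNA, but the linked library protocol is named for polyadenylated RNA. The names of the aligned files in the headers also hold the words activated and 48h, and a protocol for differentiating CD4+ T cells is linked, whose content was not used here.

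The libraries held 43821767, 58696937, 73819468 and 52005209 counts in replicates 1 to 4. Levels are in TPM, the count of a gene per base of exon, as a share of the library scaled to a fixed total. They are given as mean ± SD over the libraries (n = 4). Markers of the labelled cell type were present: all 5 regulatory T and all 5 T lineage genes were expressed, with summed levels of 2771 to 2843 TPM and 2679 to 2794 TPM. The regulatory T genes were uneven, with Il2ra at 1488, Tnfrsf18 at 580, Ctla4 at 444, Foxp3 at 289 and Ikzf2 at 13.2 TPM. The lists held no markers of other CD4+ T cells. None of the markers listed for other cell types reached a TPM of 1 in all 4 libraries. Their summed levels were 1.33 to 1.89 TPM for the 4 CD8 and natural killer genes, 0.366 to 0.547 TPM for the 4 B lineage genes and 0 to 0.290 TPM for the 5 myeloid genes. The 3 erythroid and platelet genes summed to 0 to 0.329 TPM and the 3 stromal and epithelial genes to 0.576 to 1.38 TPM. Ncr1, Lyz2, S100a8 and Hba-a1 had 0 counts in all 4 libraries. Xist stood at 172, 145, 0.255 and 0.367 TPM in replicates 1 to 4 and the Y-linked gene Ddx3y at 0.152, 0.0781, 45.1 and 45.0 TPM. These levels go against 1 animal as the source of all 4 libraries, whereas the labels give 1 donor record. No groups were formed from these values, and no member lies on a sex chromosome.

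A cyclin binds a CDK and switches it on, and successive cyclins carry a cell through G1, S phase, G2 and mitosis. D-type cyclins with Cdk4 or Cdk6, followed by cyclin E with Cdk2, phosphorylate the pocket proteins, which then release E2F factors to transcribe the genes of DNA replication. INK4 inhibitors bind Cdk4 and Cdk6, whereas CIP/KIP inhibitors bind cyclin-CDK complexes more widely. Regulatory T cells divide on antigen and interleukin 2, and a further branch of cyclins and CDKs serves transcription by RNA polymerase II in all cells.

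Promoters from RefSeq on GRCm38.p6 were available for 40 of the 52 genes, as 46 windows of 300 bases with 250 before and 50 after the start. No promoter is shown for Ccnd1, Ccnd2, Ccne2, Ccna2, Ccnh, Cdk5, Cdkn1c, Cdc25c, Wee1, Rb1, E2f4 and E2f5. Both strands were searched for exact E2F sites (TTTGGCGC, TTTCGCGC, TTTCCCGC or TTTGCCGC), for the cell cycle homology region, CHR (TTTGAA or TTCGAA), and for the NF-Y box (CCAAT). None of these words lies within another. The E2F site is the letter pattern that E2F factors are known to bind, and the CHR and the NF-Y box are known from genes of G2 and mitosis. The following stretches hold the 150 bases before the start, with matches in capitals. They show Cdk1, whose promoter held all 3 elements, Ccnb2 with repeated NF-Y boxes, Cdc25a and Rbl1 with an E2F site, and Cdk4, the most abundant member, whose window held no match.
Cdk1, chr10:69352913-69353062, minus strand: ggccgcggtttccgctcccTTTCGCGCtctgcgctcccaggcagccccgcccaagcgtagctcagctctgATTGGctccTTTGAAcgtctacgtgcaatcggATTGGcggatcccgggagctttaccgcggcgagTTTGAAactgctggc
Ccnb2, chr9:70421555-70421704, minus strand: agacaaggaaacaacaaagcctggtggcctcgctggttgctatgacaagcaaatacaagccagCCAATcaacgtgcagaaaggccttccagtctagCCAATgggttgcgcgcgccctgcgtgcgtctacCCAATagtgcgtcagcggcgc
Cdc25a, chr9:109875429-109875578, plus strand: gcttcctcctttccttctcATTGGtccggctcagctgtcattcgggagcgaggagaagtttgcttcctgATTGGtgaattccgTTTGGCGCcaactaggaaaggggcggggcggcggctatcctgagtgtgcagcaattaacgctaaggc
Rbl1, chr2:157204535-157204684, minus strand: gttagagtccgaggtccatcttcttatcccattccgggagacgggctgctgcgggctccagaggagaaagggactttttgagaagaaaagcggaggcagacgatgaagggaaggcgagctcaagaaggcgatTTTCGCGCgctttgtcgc
Cdk4, chr10:127063385-127063534, plus strand: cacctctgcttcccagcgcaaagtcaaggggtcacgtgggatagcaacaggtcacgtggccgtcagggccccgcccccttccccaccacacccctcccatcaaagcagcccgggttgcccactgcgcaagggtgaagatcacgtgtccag

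In the Cdk1 stretch the E2F site began 131 bases before the start, and the CHR elements began 71 and 15 bases before it. Its NF-Y boxes lay on the opposite strand and therefore read ATTGG. Ccnb2 had NF-Y boxes beginning 87, 54 and 21 bases before the start, all on the strand of the gene, and its CHR matches fell outside the stretch shown. An E2F site was found in 8 of the 46 windows (17.4%), against 2.26% of all 32851 promoters of the same length. The 8 genes were Cdc25a, Cdk1, Cdk2, Cdkn2a, E2f2, E2f3, E2f7 and Rbl1, so that 3 of them encode E2F factors. An NF-Y box stood in 24 windows (52.2%), against 37.4% of all promoters. A CHR stood in 11 windows (23.9%), against 19.2%, and the CHR and NF-Y box were found together in 8 windows (17.4%), against 7.52%. An E2F site together with an NF-Y box stood in 6 windows (13.04%), against 0.962%. These 6 were the promoters of Cdc25a, Cdk1, Cdk2, E2f2, E2f3 and E2f7. Such matches describe letters in a window, they are not measured binding sites, and some windows belong to the same gene.

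**Figure D1:**
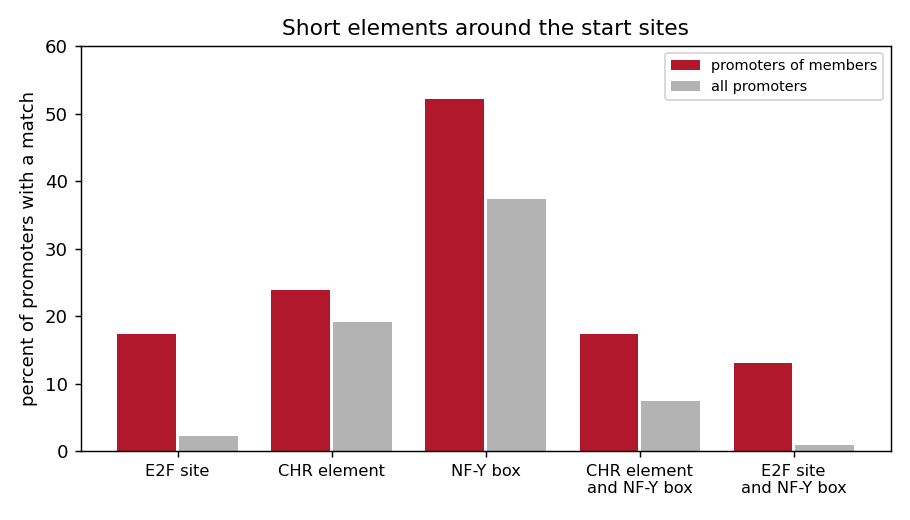
Percent of promoter windows of 300 bases with a match to each element, or to a pair of elements, for the 46 windows of members (left bar of each pair) and for all 32851 windows (right bar). An E2F site was found in 17.4% of members' windows and 2.26% of all windows.

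The circuit was expressed almost in full. Of the 52 members, 48 (92.3%) reached 1 TPM or more in each of the 4 libraries, which is taken here as expressed. The background was 22.9% of all 50600 genes and 47.2% of the 21764 protein-coding genes. A level of at least 100 TPM in all 4 libraries was reached by 15 members (28.8%), against 9.09% of protein-coding genes. The expressed members had a median of 51.5 TPM, against 33.7 TPM over the 10274 expressed protein-coding genes, and 38 of the 48 lay above 33.7 TPM. Together the 52 members held 4941 TPM, or 0.494% of the total. In bulk RNA, fewer cells that express a gene and less RNA of it per cell cannot be told apart, so an average level does not tell what share of the cells was dividing. The 4 members below the threshold were the cyclin gene Ccnd1 and the inhibitor genes Cdkn1c, Cdkn2a and Cdkn2b.

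**Figure D2:**
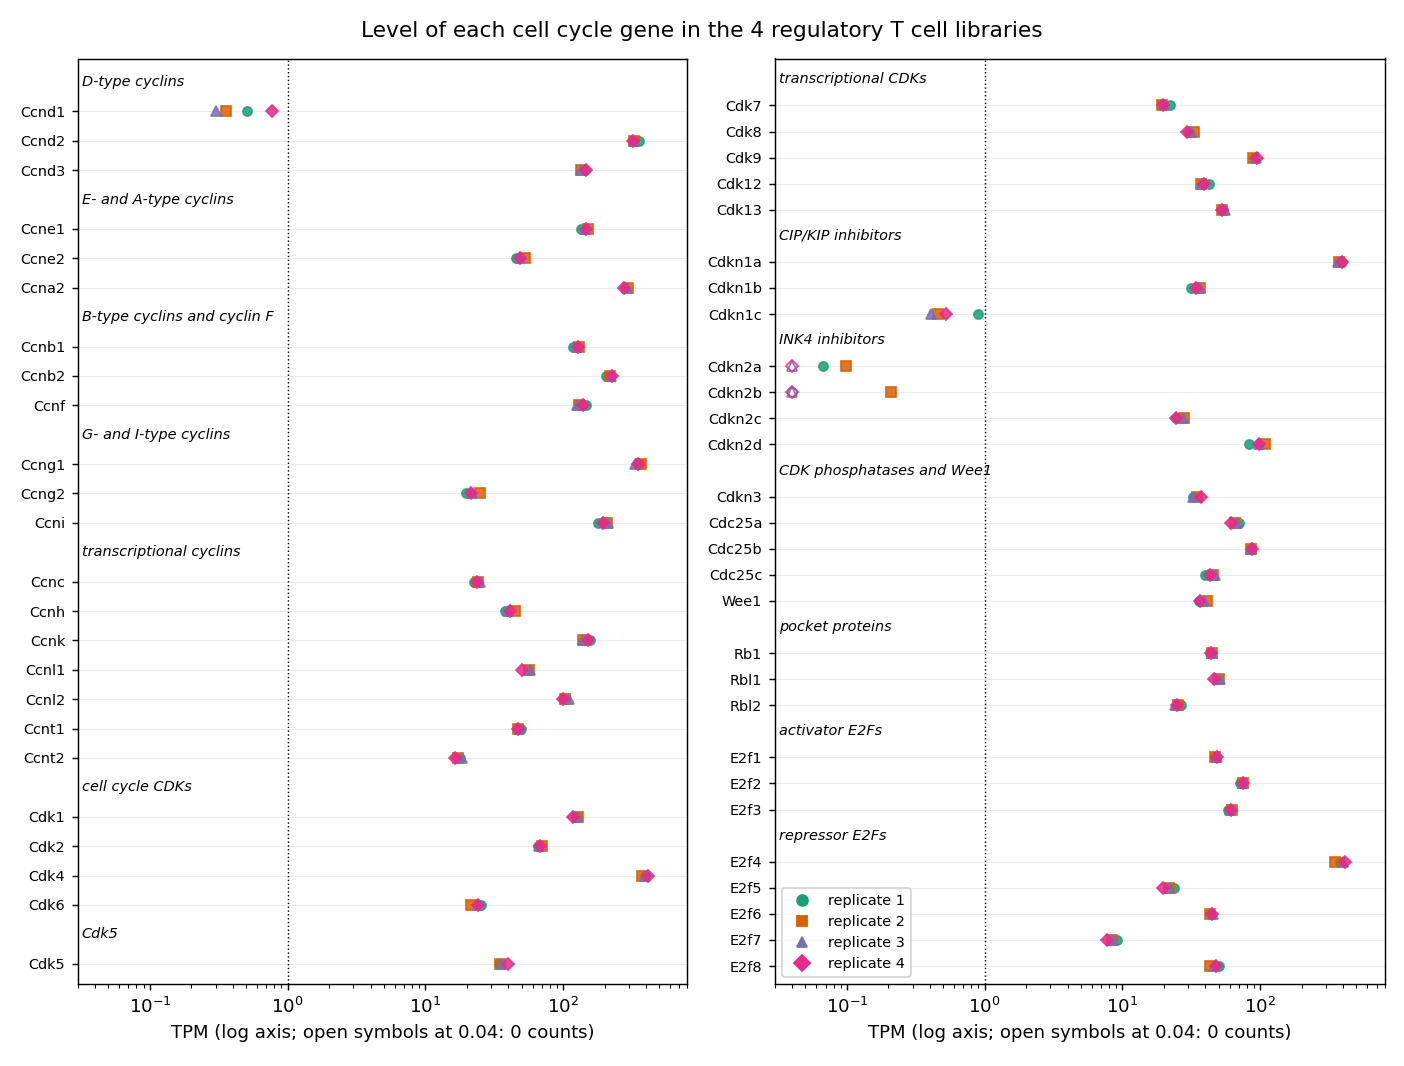
Level of each of the 52 members in TPM (log axis), grouped by role, with a symbol for each of the 4 replicates and open symbols where a library had 0 counts. The dotted line marks a TPM of 1, and Ccnd1, Cdkn1c, Cdkn2a and Cdkn2b are the members to the left of it in every library.

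The order of the levels began with Cdk4 at 393 ± 17.6 TPM, E2f4 at 386 ± 28.4 TPM and Cdkn1a at 381 ± 13.5 TPM. Ccng1 followed at 353 ± 16.7 TPM, then Ccnd2 at 333 ± 14.1 TPM and Ccna2 at 286 ± 9.55 TPM. Cdk4 held rank 371 among the expressed protein-coding genes. The first 5 overlapped with their neighbours over the libraries, whereas the lowest library of Ccnd2 (323 TPM) lay above the highest of Ccna2 (294 TPM). Over the whole order, 35 of the 47 neighbouring pairs had overlapping ranges and 12 did not, and 19 pairs kept their order in 4 of 4 libraries. The lowest expressed member was E2f7 at 8.45 ± 0.54 TPM, below Ccnt2 at 17.5 ± 0.841 TPM.

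TPM depends on the length by which counts are divided, and the deposited length sums all annotated exons of a gene. With the longest annotated transcript instead, an alternative chosen after seeing the data, 11 members moved by over 1.5 times. Cdk7 then stood at 61.4 TPM (20.3 TPM by exon length), Cdk8 at 62.1 (31.2), Ccnd3 at 252 (140) and Cdc25a at 112 (66.1). Cdk12 stood at 61.3 TPM (39.1 by exon length) and Cdk2 at 102 (68.1). In the other direction, Cdkn3 stood at 10.7 TPM (34.3 by exon length), Cdk13 at 24.1 (54.0), Cdc25c at 25.6 (43.9), Ccnf at 80.7 (136) and E2f6 at 28.2 (44.4). For each gene that fell, the longest transcript in GENCODE M21 exceeds the summed exons in GENCODE M13 (Cdkn3, 1952 against 773 bases). Counts over M13 exons were there divided by bases that were not counted, so these falls rest at least partly on mismatched annotations. The order of these 11 genes among the others is uncertain, while their spread between libraries does not depend on a length.

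The D-type cyclins, which link growth signals to Cdk4 and Cdk6, were represented by 2 of 3 genes. Ccnd2 (ENSMUSG00000000184.12, mm10 chromosome 6, 127125162 to 127152193, minus strand) had 354, 325, 329 and 323 TPM in replicates 1 to 4. Ccnd3 (chromosome 17, 47505051 to 47599691, plus strand) had 143, 136, 134 and 147 TPM. Ccnd2 was above Ccnd3 in every library without overlap, by 1.25 ± 0.07 in log2(TPM + 0.1), or 2.38 ± 0.12 times. Ccnd1 had 0.504, 0.357, 0.304 and 0.775 TPM from only 29 to 55 counts, and no library brought it to a TPM of 1. Of the summed D-type level, Ccnd2 held 70.3 ± 1.1% and Ccnd3 29.6 ± 1.1%. By the longest transcript Ccnd2 stood at 391 TPM and Ccnd3 at 252 TPM, a log2 difference of 0.63.

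Each of 21 pairs of related genes was compared within the libraries in this way, first gene minus second gene, and the test was an exact permutation of the signs over the 4 libraries, two-sided. There are 16 sign patterns, the smallest p they allow is 0.13 in this exact test, and so no pair could pass a threshold of 0.05. All 21 pairs differed in 1 direction in 4 of 4 libraries, with the first gene higher in 13 pairs and lower in 8. Every pair therefore had the smallest p of the exact test, 0.13, also after Benjamini-Hochberg adjustment over the 21 pairs. Pairs of unrelated genes were not compared in this way, so the count of 21 does not set related genes apart. For the 22nd pair listed, Cdkn2a and Cdkn2b, both genes averaged less than 3 counts would give, and no fold was computed.

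**Figure D3:**
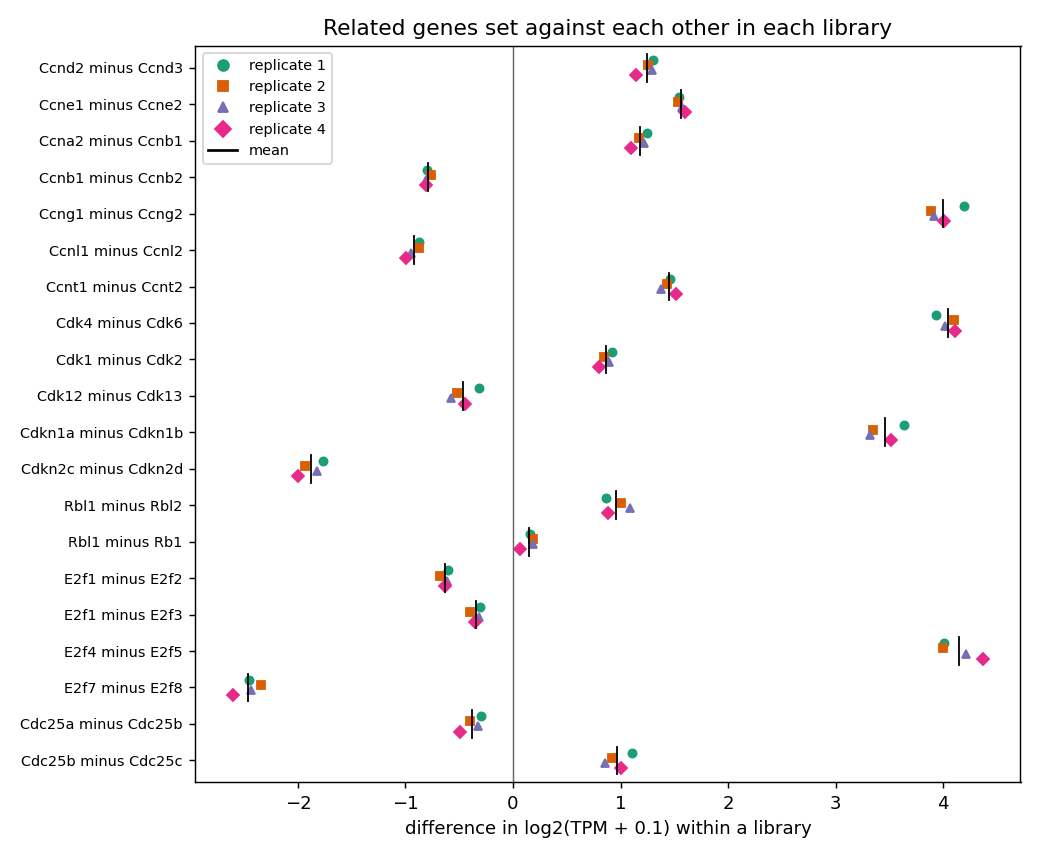
Difference in log2(TPM + 0.1) between the first and the second gene of 20 related pairs, with a symbol for each replicate and a vertical bar for the mean; the pair Ccnd2 and Ccnd1, at 9.22, lies beyond the axis and is not drawn. In each pair the 4 replicates fall on the same side of 0, from E2f7 minus E2f8 at -2.46 to E2f4 minus E2f5 at 4.15.

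The E- and A-type cyclins, which drive entry into and progress through S phase, were all expressed. Ccna2 (chromosome 3, 36564865 to 36572150, minus strand), the A-type cyclin of dividing somatic cells, had 279, 294, 294 and 275 TPM. Ccne1 (chromosome 7, 38097984 to 38107534, minus strand) had 134, 152, 144 and 147 TPM. Its relative Ccne2 had 45.9, 52.5, 48.3 and 48.3 TPM. Replicate 1 was the lowest for both E-type cyclins and replicate 2 the highest. Ccne1 exceeded Ccne2 by 1.56 ± 0.03 on the log2 scale, 2.96 ± 0.07 times.

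The B-type cyclins, which partner Cdk1 at mitosis, were also abundant. Ccnb2 (chromosome 9, 70407692 to 70421547, minus strand) had 205, 221, 221 and 225 TPM. Ccnb1 (chromosome 13, 100778650 to 100786570, minus strand) had 118, 130, 126 and 129 TPM. Replicate 1 was the lowest for both genes, and the ranges of the 2 genes did not overlap. Ccnb1 minus Ccnb2 was -0.79 ± 0.02 on the log2 scale by exon length, but only -0.035 by the longest transcript. Of the 50-base runs in the Ccnb1 transcripts, 23.4% also occur in 6 other annotated genes, among them Ccnb1-ps, so its counts may be too low and the order of the pair is uncertain. Ccna2 exceeded Ccnb1 by 1.18 ± 0.06. Ccnf, whose product is an F-box protein rather than a CDK activator, had 148, 131, 126 and 139 TPM. It was highest in replicate 1, and 0.258% of its exon bases overlap a microRNA gene on the same strand.

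Of the G- and I-type cyclins, Ccng1 and Ccni were abundant and Ccng2 was not. Ccng1, a target of p53, had 362, 370, 332 and 348 TPM. Ccng2 had 19.7, 24.9, 21.9 and 21.6 TPM, and Ccng1 exceeded it by 4.00 ± 0.14 on the log2 scale, 16.1 ± 1.58 times. Ccni had 179, 208, 211 and 196 TPM, with replicate 1 the lowest. Of the 50-base runs of Ccni, 14.2% occur in 2 other annotated genes, so its level may be too low. Ccng2 and Ccni lie 60761 bases apart on chromosome 5, with 22.0 and 198 TPM, so this pair of neighbours stood far apart in level. The same held by exon length for Ccnb1 and Cdk7, 47707 bases apart on chromosome 13, at 126 and 20.3 TPM. By the longest transcript they stood at 168 and 61.4 TPM. The inhibitor genes Cdkn2a and Cdkn2b, 11635 bases apart, did not differ in this way, as both lay below a TPM of 1.

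All 4 cell cycle CDKs were expressed, and Cdk4 held most of their summed level. Cdk4 (ENSMUSG00000006728.12, chromosome 10, 127063534 to 127067920, plus strand) had 391, 371, 394 and 414 TPM. Cdk6, which acts with the same D-type cyclins, had 25.4, 21.6, 24.2 and 23.9 TPM. The ranges were far apart, Cdk4 exceeded Cdk6 by 4.04 ± 0.08 on the log2 scale, and Cdk4 made up 94.3 ± 0.3% of their sum. Cdk1 (chromosome 10, 69335146 to 69352938, minus strand), the mitotic kinase, had 125, 128, 125 and 119 TPM. Cdk2, the partner of cyclins E and A, had 65.8, 70.7, 67.3 and 68.3 TPM. Cdk1 exceeded Cdk2 by 0.87 ± 0.05 on the log2 scale by exon length, without overlap between their ranges, and by 0.11 by the longest transcript. Cdk5, best known from neurons, had 34.3, 34.6, 35.5 and 40.1 TPM, with replicate 4 the highest.

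The transcriptional cyclins were all expressed, and the transcriptional CDKs as well. Ccnk, the partner of Cdk12 and Cdk13 in phosphorylating RNA polymerase II, was the most abundant of these cyclins at 158, 139, 140 and 151 TPM. Ccnl2, a cyclin of RNA splicing, averaged 104 ± 4.35 TPM and its relative Ccnl1 54.9 ± 3.13 TPM. Ccnl1 minus Ccnl2 was -0.92 ± 0.06 on the log2 scale. Ccnt1 and Ccnt2, which with Cdk9 form the elongation factor P-TEFb, stood at 47.9 ± 0.926 TPM and 17.5 ± 0.841 TPM, a difference of 1.45 ± 0.06. Ccnh, which activates Cdk7, averaged 40.9 ± 2.65 TPM, and Ccnc, which activates Cdk8 in the mediator complex, 23.9 ± 1.07 TPM.

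Among their kinases Cdk9 was the highest, with 90.4, 89.3, 94.1 and 94.3 TPM, and 3.36% of its exon bases overlap microRNA genes on the same strand. Cdk13 had 53.5, 53.3, 56.0 and 53.2 TPM, so replicate 3 stood apart from the other 3 libraries. Cdk12 had 42.8, 37.1, 37.5 and 38.9 TPM. Cdk12 minus Cdk13 was -0.47 ± 0.11 on the log2 scale by exon length, but 1.34 by the longest transcript, so the order of this pair rests on the length used. The longest Cdk13 transcript (12548 bases, GENCODE M21) exceeds its counted exons (7081 bases, GENCODE M13), so the 1.34 mixes annotations. Cdk8 averaged 31.2 ± 1.35 TPM, with 5.31% of its 50-base runs found in other annotated genes, and Cdk7 20.3 ± 1.18 TPM.

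Inhibitor levels were concentrated in 1 gene of each family. Among the CIP/KIP genes, Cdkn1a (ENSMUSG00000023067.13, chromosome 17, 29090979 to 29100722, plus strand), which encodes the p53 target p21, had 392, 374, 365 and 393 TPM. Cdkn1b, which encodes p27, had 31.4, 36.7, 36.5 and 34.2 TPM, and was lowest in replicate 1, where Cdkn1a was among its highest. Cdkn1a exceeded Cdkn1b by 3.46 ± 0.15 on the log2 scale, 11.05 ± 1.16 times. Cdkn1c, which encodes p57, had 0.893, 0.455, 0.408 and 0.521 TPM from 16 to 23 counts. Cdkn1a held 91.5 ± 0.7% of the summed CIP/KIP level.

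Among the INK4 genes, Cdkn2d, which encodes p19Ink4d, had 83.7, 108, 98.4 and 98.6 TPM. It was lowest in replicate 1 and highest in replicate 2, and its coefficient of variation of 10.4% was the highest of the expressed members. Cdkn2c, which encodes p18Ink4c, had 24.4, 28.2, 27.7 and 24.6 TPM. Cdkn2c minus Cdkn2d was -1.88 ± 0.10 on the log2 scale. Cdkn2d held 78.6 ± 1.2% of the summed INK4 level and Cdkn2c 21.3 ± 1.2%. Cdkn2a had 1, 2, 0 and 0 counts in replicates 1 to 4, against a floor of 0.203 TPM for 3 counts in the shallowest library. Cdkn2b had 0, 5, 0 and 0 counts, against a floor of 0.171 TPM. Gene counts cannot tell the p16Ink4a and p19Arf products of Cdkn2a apart. Cdkn2a stayed below its floor in every library, and Cdkn2b passed its floor in replicate 2, with 0.208 TPM. These floors cover counting error only. Cdkn2a and Cdkn2b lie 11635 bases apart on chromosome 4.

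**Figure D4:**
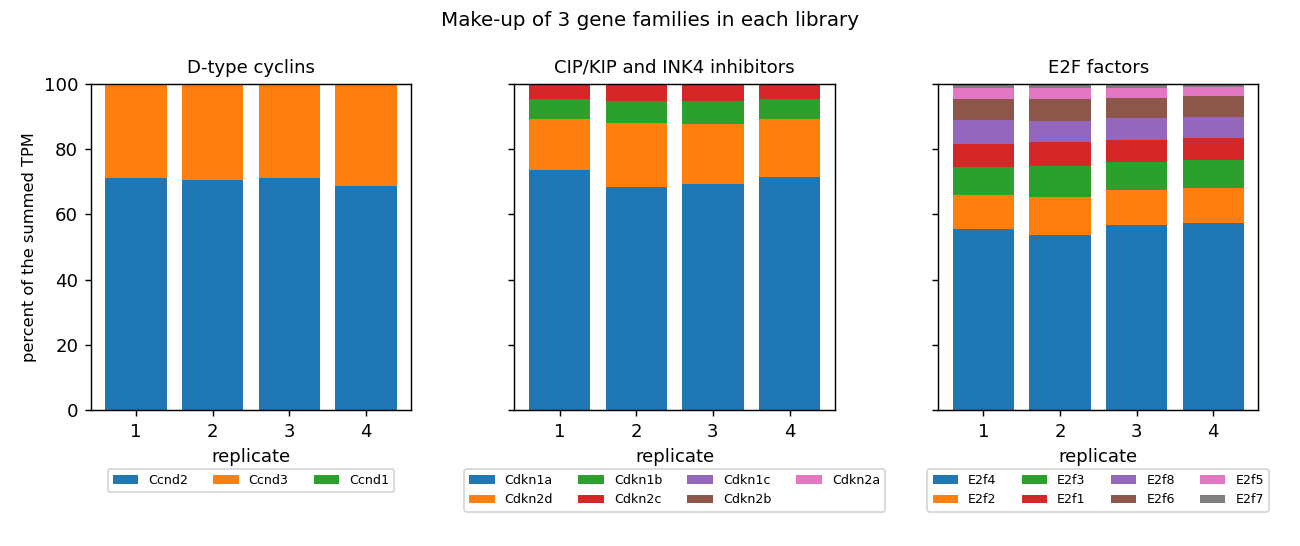
Share of each gene in the summed TPM of 3 families, the D-type cyclins, the CIP/KIP with INK4 inhibitors, and the E2F factors, with a stacked bar for each of the 4 replicates adding up to 100 percent. Ccnd2, Cdkn1a and E2f4 form the largest segment of their panel in all 4 replicates.

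Sums over roles gave the balance of these parts as RNA, which says nothing of protein or activity. The cell cycle CDKs summed to 609 ± 14.03 TPM, 1.46 ± 0.04 times the CIP/KIP genes at 416 ± 11.7 TPM. The ratio lay between 1.43 and 1.52 in the 4 libraries. Cdk4 and Cdk6 together were 3.40 ± 0.41 times the INK4 genes, with 3.85, 2.88, 3.32 and 3.56 in replicates 1 to 4. That ratio was highest in replicate 1 and lowest in replicate 2, the libraries in which Cdkn2d was lowest and highest.

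The phosphatases that remove inhibitory phosphate from CDKs were expressed beside Wee1, the kinase that adds it. Cdc25b had 85.8, 86.3, 85.3 and 86.6 TPM, the narrowest relative spread of all expressed members. Cdc25a had 69.9, 65.3, 67.9 and 61.3 TPM, and Cdc25c 39.9, 45.6, 47.0 and 43.2 TPM. Cdc25b exceeded Cdc25c by 0.97 ± 0.11 on the log2 scale, and by 1.68 by the longest transcript. The longest Cdc25c transcript (2634 bases) exceeds its counted exons (1941 bases), so the 1.68 mixes annotations. Cdc25a minus Cdc25b was -0.38 ± 0.09 by exon length and 0.44 by the longest transcript, so its direction rests on the length. Wee1 had 36.1, 41.2, 39.5 and 36.5 TPM, and by exon length the 3 Cdc25 genes summed to 5.13 ± 0.27 times its level. Cdkn3, whose product dephosphorylates the activating site of CDKs, averaged 34.3 ± 2.27 TPM from 318 to 545 counts, the fewest of any expressed member.

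The pocket proteins, which hold E2F factors in check, were all expressed, with Rbl2 below the other two. Rbl1, which encodes p107, had 48.4, 50.5, 51.2 and 46.0 TPM. Rb1, the retinoblastoma gene, had 43.4, 44.4, 45.0 and 43.9 TPM. Rbl1 exceeded Rb1 by 0.15 ± 0.06 on the log2 scale, the smallest of the pair differences by exon length, in 4 of 4 libraries, and by 0.081 by the longest transcript. Rbl2, which encodes p130, a pocket protein known from resting cells, had 26.5, 25.1, 24.0 and 24.9 TPM. Rbl1 exceeded Rbl2 by 0.96 ± 0.11.

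All 8 E2F genes were expressed, and E2f4 held more of their sum than the 7 others together. E2f4 (ENSMUSG00000014859.9, chromosome 8, 105297663 to 105305370, plus strand), a repressor that works with pocket proteins, had 381, 349, 403 and 413 TPM. Replicate 2 was the lowest, and E2f4 made up 55.9 ± 1.7% of the summed E2F level. The activators E2f2, E2f3 and E2f1 stood at 74.1 ± 1.79, 60.7 ± 1.70 and 47.7 ± 0.770 TPM, and their ranges over the libraries did not overlap. E2f1 minus E2f2 was -0.63 ± 0.03 and E2f1 minus E2f3 was -0.34 ± 0.04 on the log2 scale. By the longest transcript E2f1 and E2f3 differed by -0.062, where that of E2f3 (5097 bases) exceeds its counted exons (4794 bases). E2f5, the closest relative of E2f4, had 23.5, 21.7, 21.7 and 19.9 TPM, and E2f4 exceeded it by 4.15 ± 0.18. E2f6, a repressor that does not need pocket proteins, had 44.3, 43.4, 45.3 and 44.7 TPM.

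The atypical repressors E2f7 and E2f8, which bind DNA without a partner, differed from each other. E2f8 had 50.2, 43.5, 46.4 and 47.6 TPM and E2f7 9.07, 8.47, 8.51 and 7.75 TPM, with E2f7 minus E2f8 at -2.46 ± 0.11 on the log2 scale. By exon length, the activators summed to 3.31 ± 0.24 times E2f7 and E2f8. E2f4 alone was 2.12 ± 0.16 times the activators, and the activators were 1.54 ± 0.05 times the pocket proteins. The partner genes Tfdp1 and Tfdp2, which the other 6 factors need to bind DNA, summed to 0.499 ± 0.030 times E2f1 to E2f6.

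At the median, the members varied slightly less between libraries than expressed protein-coding genes. The median coefficient of variation of TPM was 4.80% over the 48 expressed members, against 5.97% over the expressed protein-coding genes, and 30 of the 48 lay below 5.97%. A median splits those genes evenly, and the count below it was 26 without replicate 3 and 34 without replicate 1. The coefficient of the expressed members ranged from 0.659% for Cdc25b to 10.4% for Cdkn2d. A coefficient above 10% was found for 1 of the 48 members, against 21% (2161) of the expressed protein-coding genes. Members are on average more abundant than those genes, and abundant genes have less counting error, so these shares are not matched for level. For Cdc25b, E2f1 and E2f6 the spread did not exceed what counting alone would give. For 37 of the 48 members it was more than 2 times the counting error. These counts against counting error were not made over other genes, so they do not set members apart.

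**Figure D5:**
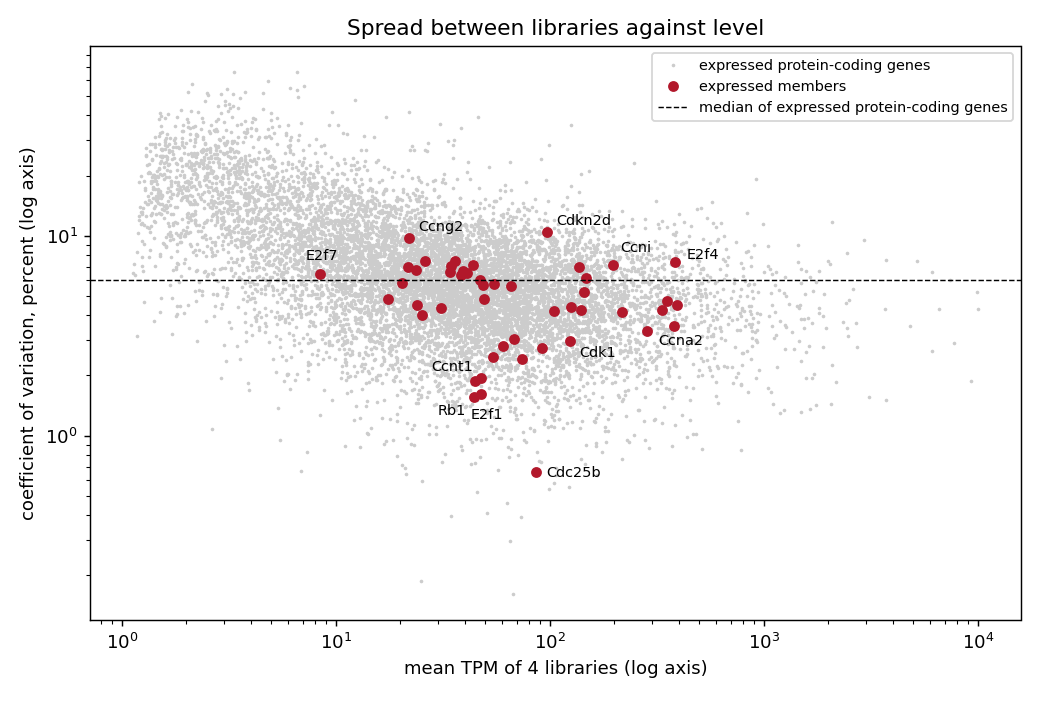
Coefficient of variation of TPM over the 4 libraries in percent against mean TPM (both axes logarithmic) for the 48 expressed members (large points) and the 10274 expressed protein-coding genes (small points). The dashed line is the median of these protein-coding genes at 5.97%, and the members lie between 0.659% for Cdc25b and 10.4% for Cdkn2d.

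The dispersion estimated by edgeR over the 12917 genes that passed its filter on low counts, 50 members among them, was also lower for members at the median. The biological coefficient of variation, the spread left after counting error, had a median of 5.81% over the 50 members and of 7.34% over all genes tested. It was below 7.34% for 44 of the 50 members, and 13 of them lay above the trend of spread against level. A median splits the genes tested evenly, but the count below it is not matched for level. The estimates follow level too, so it does not set members apart from genes of like level. The count above the trend was not made over all genes tested, so it does not set members apart. Replicate 1 was the lowest library for 19 of the 48 expressed members and the highest for 12. Replicate 2 was the highest for 16 and the lowest for 10, replicate 3 the highest for 11 and the lowest for 7, and replicate 4 the highest for 9 and the lowest for 12. How often each library was highest or lowest was not counted over other genes. These counts may therefore describe the libraries as a whole rather than the members.

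Most genes listed as partners of the circuit, here and in the next paragraphs, were also expressed. The background was 47.2% of all protein-coding genes, and the difference was not tested. A list of 10 genes held E2F partners, subunits of the DREAM complex, and Foxm1, Mybl1 and Mybl2 beside them. The DREAM complex represses cell cycle genes in resting cells. All 10 genes were expressed, with a median of 28.6 TPM. The E2F partner Tfdp1 stood at 305 ± 3.67 TPM, the histone-binding Rbbp4 at 173 ± 8.69 TPM and Foxm1, an activator of mitotic genes, at 81.3 ± 4.55 TPM. All 9 genes of the SCF ubiquitin ligase and of small CDK subunits were expressed, with a median of 119 TPM. The CDK subunits Cks1b and Cks2 led at 298 ± 17.4 and 256 ± 12.2 TPM, beside Skp1a of the ligase at 231 ± 17.9 TPM.

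All 18 genes of the anaphase-promoting complex and its regulators were expressed. This ubiquitin ligase destroys cyclins A and B. Its activator Cdc20 stood at 508 ± 22.9 TPM, its subunit Anapc5 at 313 ± 5.92 TPM and its ubiquitin carrier Ube2c at 258 ± 17.5 TPM. All 11 genes of the checkpoint kinases and the p53 arm were expressed as well. Trp53, which encodes p53, stood at 207 ± 8.24 TPM, the stress gene Gadd45b at 152 ± 14.1 TPM and the Cdk1-inhibiting kinase Pkmyt1 at 130.1 ± 12.8 TPM.

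Of 12 partners of the transcriptional kinases, 11 were expressed. Supt5 at 196 ± 14.8 TPM and the P-TEFb regulator Larp7 at 89.0 ± 6.02 TPM were among the highest, while Med12l averaged 0.251 ± 0.0284 TPM. Counts for cyclins, CDKs and related genes outside the circuit also stand beside the 47.2% of all protein-coding genes that were expressed, with no test of the difference. Of 10 further genes of cyclins and related proteins, 4 were expressed, led by Ccny at 86.4 ± 4.25 TPM, Cables2 at 36.3 ± 1.97 TPM and Ccnj at 12.3 ± 1.06 TPM. Ccna1, the A-type cyclin of the germ line, was without a count, where 3 counts would give 0.129 TPM. Ccnb3 averaged 0.00506 ± 0.0101 TPM, Ccnjl 0.0341 ± 0.0278 TPM and Ccno 1.26 ± 0.238 TPM, with Ccno below 1 in some library. Of 19 further genes named for CDKs, CDK-like kinases or CDK5 partners, 12 were expressed, led by Cdk11b at 128 ± 5.13 TPM, Cdk16 at 59.3 ± 1.19 TPM and Cdk17 at 58.9 ± 2.50 TPM. Cdk3-ps, by its symbol a pseudogene, averaged 0.666 ± 0.380 TPM. Cdk14, Cdk15 and Cdk18 averaged 0.00788 ± 0.00931, 0.154 ± 0.110 and 0.0412 ± 0.0824 TPM.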

How the data were processed

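The authors deposited whole-number counts of fragments per gene, made with featureCounts 1.4.6-p4 on mm10 with GENCODE M13, per the file headers, which also record paired, reverse-stranded counting over exons. The aligner: not given in the sources used here. The counts and exon lengths as deposited were turned into TPM and FPKM here. Symbols for 50376 of 50600 genes, gene types and transcripts came from GENCODE M21.

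The members and lists were chosen with earlier results of these data known. All members are accounted for, and of each list the 3 most abundant genes and up to 4 under a TPM of 1 in some library are named, except for an item that is not reported here. TPM had been assumed among the deposited values and was computed instead. Dispersions came from edgeR 4.0.16 with an intercept only, filterByExpr and TMM, checked on simulated data, and DESeq2 1.42.0 gave alternative size factors. Pairs of genes were tested on log2(TPM + 0.1) by the exact sign-flip permutation test. A gene's floor is the TPM of 3 counts in the library where that is highest. Levels under other lengths, scalings, thresholds and without each replicate were computed with Python 3.11.15.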

Additional observations from a re-analysis of the deposited data

Results flagged for a closer look

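In 2 of the 52 members the highest library lay far from the others by Dixon's test at the 95% level for 4 samples. Chance flags about 1 in 20 groups, so 2 of 52 is no more than chance gives. Cdk13 reached 56.0 TPM in replicate 3, and this gap was 0.898 of its range. Cdkn2b reached 0.208 TPM in replicate 2, from 5 counts, while the other 3 libraries had 0 counts. With those libraries at 0, any count in replicate 2 would have been flagged, so this flag says nothing of its size.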

How the results depend on the processing

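The count of 48 expressed members was the same at TPM thresholds of 0.5 and 5, at an FPKM threshold of 1, with the longest transcript's length and without each replicate. The count over 100 TPM was 14 or 15. The median coefficient of variation of expressed members ranged from 4.26% to 5.42% without each replicate in turn. Without the filter on low counts the median biological coefficient of variation of members was 6.40% (5.81% with it) and the common one over all genes 10.2% (8.52% with it). Of 147 values for the 21 pairs under 7 alternatives, 2 reversed, both with the longest transcript's length: Cdk12 minus Cdk13 became 1.34 and Cdc25a minus Cdc25b 0.44. That length moved 41 of 52 levels by more than 1 SD, by 0.313 to 3.02 times. For Cdk13 and Cdkn3, among others, it exceeds the exons counted, as transcripts came from GENCODE M21 and counts from M13. TPM over protein-coding genes only multiplied levels by 1.05. No paired comparison of groups was possible because there is 1 group, and only genes were compared within libraries. Depth limits what can be said of Cdkn2a and Cdkn2b.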
